A study of Gallus gallus with 12 samples.

Results

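The genes described here are 46 genes of mitochondrial respiration and of the mitochondrial ribosome, measured in HTC cells, a chicken macrophage cell line, before and after contact with Eimeria. They were chosen by symbol alone: NDUF for complex I, SDH for complex II, UQCR for complex III, COX followed by a digit for complex IV, ATP5 for complex V, and MRPL or MRPS for the mitochondrial ribosome. Such a symbol was carried by 165 of the 14718 rows of the array, under 46 symbols, and all 46 had a value on all 12 arrays. They make up 46 of 3700 features tested, of which 2238 carry a name. Complex I has 11 of these genes, complex II 1, complex III 2, complex IV 8, complex V 7 and the mitochondrial ribosome 17, of which 10 belong to the large (MRPL) and 7 to the small subunit (MRPS). COX11 and COX15 in the complex IV group encode assembly factors and not subunits.

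Complexes I to IV of the inner mitochondrial membrane pass electrons from NADH and succinate to oxygen and, except for complex II, pump protons across the membrane, and complex V uses the proton gradient to make ATP. A few subunits are made inside the organelle by the mitochondrial ribosome, while all 46 genes here are genes of the nucleus, translated in the cytosol and imported. In activated mammalian macrophages, respiration and its intermediates, succinate among them, are known to be part of the switch between inflammatory and resting states.

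The groups are unstimulated HTC cells and HTC cells stimulated for 4, 18 or 48 h with a protozoan that infects the chicken intestine, either E. acervulina, E. maxima or E. tenella. Each species and time had 1 polyA RNA sample, counted as 12 with the unstimulated RNA of each loop taken as its own. Each of the 12 two-colour cDNA arrays compared 2 RNA samples of a species, 1 labelled with Alexa555 and 1 with Alexa647, and the 4 arrays of a species closed a loop (unstimulated, 4 h, 18 h, 48 h and back for E. tenella and E. acervulina, the other way round for E. maxima). All samples come from a single cell line, and cells kept unstimulated for 4, 18 or 48 h are not named in the labels, so the effects of the parasite and of the hours in culture cannot be told apart. The unstimulated RNA has the same name in the 3 loops and was treated as 3 samples. If it was 1 sample, every change against it shares the same deviation.

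Values below are on the log2 scale and compare a stimulated RNA with the unstimulated one of its own loop, unless another reference is named. A mean ± SD is over the 3 species (n = 3), which served as the replicates of a time. Tests are limma fits over all 3700 features with Benjamini-Hochberg adjustment, and a gene is said to have risen or fallen only where the adjusted p is under 0.05. The ratio was read as Alexa555 over Alexa647, a likely direction only; under the other reading every rise below is a fall and every fall a rise, with sizes and tests unchanged. The deposited log ratios give no level, so genes cannot be ranked by abundance and the cell type cannot be checked from levels. The share of rows without a value ran from 5.30% to 17.1% between arrays. Of 9 listed macrophage genes, LYZ was lower at 4 h (-0.93, adjusted p = 0.010) and CYBB at 48 h (-0.89, adjusted p = 0.039). The 9 did not share a direction at 4 h. C1QC (1.10, adjusted p = 0.073), CSF1R (0.35), SPI1 (0.18), CTSS (0.07) and MARCO (0.02) were above 0 and the others below. None of the 5 listed T cell, erythroid and fibroblast genes tested passed against unstimulated cells at any time. The part of cell identity in the results was not tested. In bulk RNA, fewer cells of a type and less RNA per cell cannot be told apart.

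After 4 h the genes that passed the test were all lower than in unstimulated cells. Genes of 5 of the 6 groups fell: NDUFS8 of complex I, SDHD of complex II, COX6C and COX7B of complex IV, ATP5J2 and ATP5L of complex V, and MRPL33, MRPL35 and MRPS21 of the mitochondrial ribosome. These are 9 of 46 genes, or 19.6%, beside 5.89% of all features that were lower at 4 h. Features without a name are single rows, while a named feature is the average of its rows. The array error SD, taken from the misfit of the loops, had a median of 0.08 for the members. It was 0.11 for named features and 0.13 for all features. Shares called among named features alone are not given here, and the part of precision in the difference was not tested. No member was higher as the average of its rows, beside 4.51% of all features; a single row of ATP5O was, as given with the clones. The median change of the 46 genes was -0.23 and 37 had a change below 0, against a median of -0.03 over all 3700 features, of which 2000 were below 0.

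At the later times fewer genes passed, with a similar median. SDHD and ATP5L were lower at 18 h (2 of 46, beside 0.486% of all features lower and 1.14% higher), with a median of -0.24 over the members. SDHD, ATP5L, MRPL33 and MRPL35 were lower at 48 h (4 of 46, beside 1.86% lower and 1.73% higher), with a median of -0.22. Below 0 were 35 of the 46 genes at 18 h and 42 at 48 h. Over all features the median was -0.003 at 18 h and -0.03 at 48 h. The matching counts over all features are not given here. No array of a loop paired the 18 h with the unstimulated RNA, so the 18 h change carries more array error.

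Over the mean of the 3 stimulated times, 13 genes fell, again with none higher as an average of rows. They were NDUFA5, SDHD, COX6C, COX7B, ATP5B, ATP5I, ATP5J2, ATP5L, ATP5PB, MRPL14, MRPL33, MRPL35 and MRPS21, or 28.3% of the 46, beside 6.3% of all features lower and 4.16% higher. All 9 changes, 3 species by 3 times, lay below 0 for 18 genes (39.1%, beside 10.4% of all features and 241 of the 2238 named features). All 9 lay above 0 for no member, beside 265 of all 3700 features and 157 of the named ones. The 3 changes of a species share 1 unstimulated RNA, so the 9 are not independent signs. No call held with 1 species left out: leaving out E. tenella, E. maxima or E. acervulina brought the members past the threshold to 0 at 4 h, 18 h, 48 h and for the mean, where each fit rests on 2 species. Calls over all 3700 features also dropped in those fits, to at most 76 at 4 h, 1 at 18 h, 2 at 48 h and 4 for the mean, with 0 in at least 1 fit of each. At an unadjusted p under 0.05 those fits held between 8 and 20 members. The matching counts over all features are not given here, so these cannot be read as particular to the members. With all species, that limit held 18, 17, 20 and 20 members at 4 h, 18 h, 48 h and for the mean. Over all features it held 1079, 989, 948 and 1181.

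**Figure D1:**
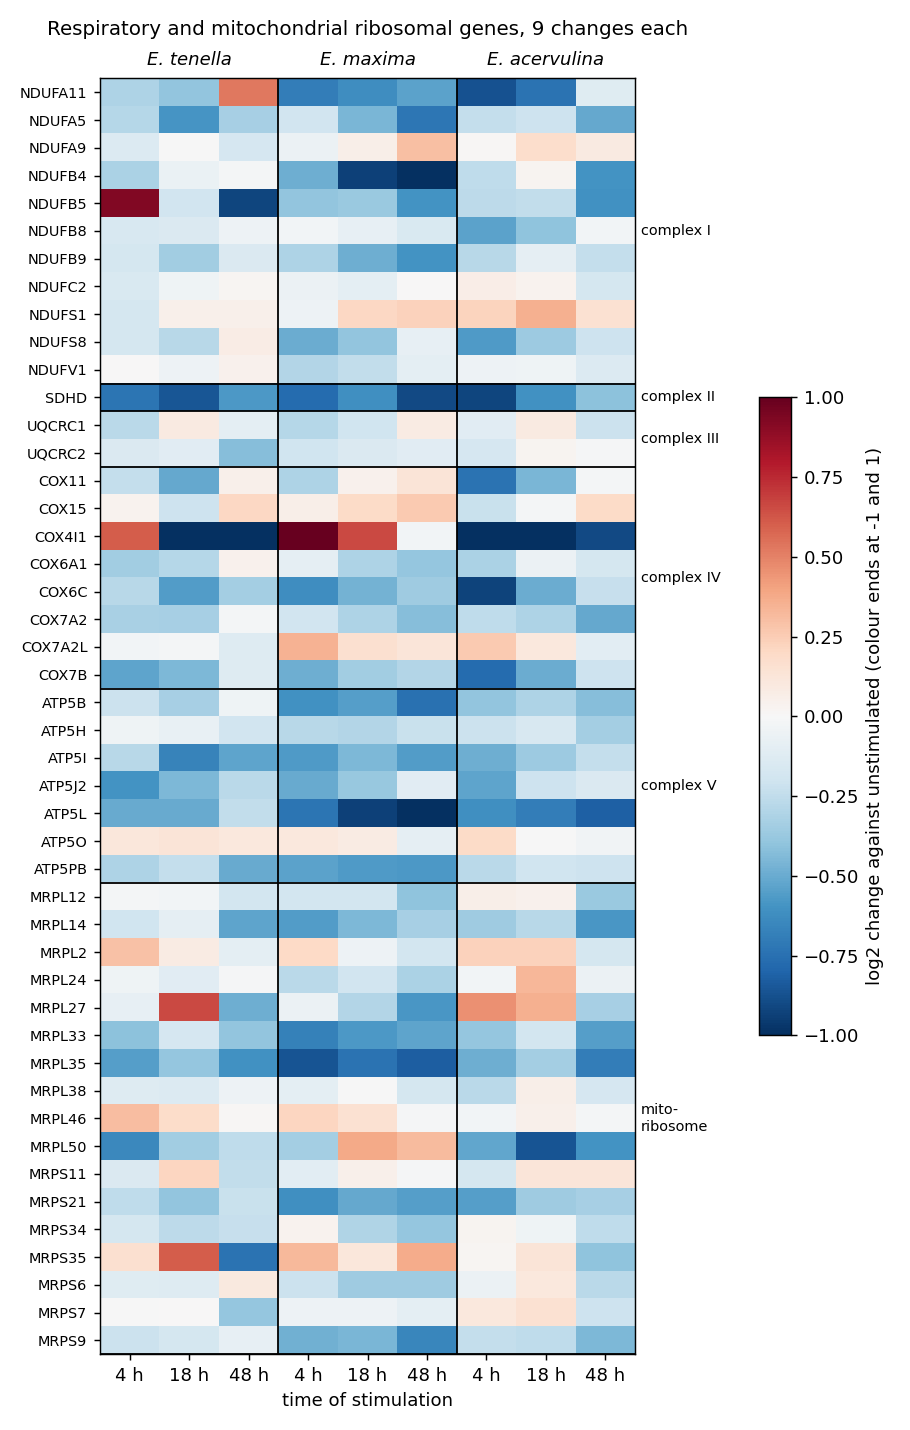
Log2 change of each of the 46 genes (rows, by complex) against unstimulated RNA, for the 9 species-time samples (columns); the colour scale ends at -1 and 1. Most cells are below 0, SDHD and ATP5L are below 0 in all 9 columns, and COX4I1 runs from 2.34 to -2.11.

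Complex I, the NADH dehydrogenase, had 1 gene past the test at 4 h, NDUFS8, and 1 for the mean, NDUFA5; the median of its 11 genes was -0.24 at 4 h, -0.27 at 18 h and -0.07 at 48 h. NDUFS8, an iron-sulfur subunit, changed in E. tenella by -0.18, -0.28 and 0.07 at 4, 18 and 48 h. Its changes were -0.50, -0.39 and -0.08 in E. maxima and -0.56, -0.36 and -0.21 in E. acervulina. It was below 0 in all species at 4 and 18 h and lay between -0.21 and 0.07 at 48 h. Its mean of -0.41 ± 0.21 at 4 h passed (adjusted p = 0.036). NDUFA5, an accessory subunit, was below 0 in all 9 samples, between -0.72 (E. maxima, 48 h) and -0.19 (E. maxima, 4 h), with a mean of -0.39 (SE 0.10, adjusted p = 0.044).

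The lowest mean in complex I was that of NDUFA11, an accessory subunit of the membrane arm, which did not pass. Its 4 h changes were -0.31 in E. tenella, -0.69 in E. maxima and -0.87 in E. acervulina (mean -0.62 ± 0.29, adjusted p = 0.057), and at 48 h they were 0.52, -0.54 and -0.12. The highest was NDUFS1, a core iron-sulfur subunit, with a mean of 0.12 (adjusted p = 0.38) and changes from -0.17 to 0.36. The means of the iron-sulfur subunit genes NDUFS8 (-0.28) and NDUFS1 lay on opposite sides of 0. NDUFB5 stood apart at 4 h in E. tenella, at 0.92, where its other 8 changes lay between -0.91 and -0.19.

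Complex II, succinate dehydrogenase, is represented by SDHD, one of its membrane anchors, and fell at every time. Its changes at 4, 18 and 48 h were -0.73, -0.85 and -0.57 in E. tenella. They were -0.77, -0.61 and -0.90 in E. maxima, and -0.92, -0.61 and -0.41 in E. acervulina. No sample lay above -0.41, and no species was lowest at all 3 times. The means were -0.81 ± 0.10, -0.69 ± 0.14 and -0.63 ± 0.25 (adjusted p = 0.012, 0.047 and 0.040), the lowest of all 46 at 4 h and over the mean (-0.71, SE 0.11, adjusted p = 0.015). Its 2 clones on the array were both below 0 in all 9 samples, with mean changes of -0.82 and -0.63. The later calls depended on the processing. With each array centred on its median, SDHD no longer passed at 48 h. It passed at neither 18 h nor 48 h with arrays scaled to one spread or with at least 3 of 4 arrays of every loop. The same held with each row tested on its own. The 4 h call held in all of these settings.

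Complex III, which passes electrons to cytochrome c, had its 2 core protein genes on the array and neither passed. UQCRC1 had means of -0.22 ± 0.09, -0.01 ± 0.17 and -0.08 ± 0.15 at 4, 18 and 48 h (adjusted p = 0.25 at 4 h), and UQCRC2 of -0.17 ± 0.03, -0.08 ± 0.09 and -0.18 ± 0.21 (adjusted p = 0.33 at 4 h). Both were below 0 in all species at 4 h and had changes of both signs at 18 h.

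Complex IV, cytochrome c oxidase, had 2 of 8 genes past the test, both at 4 h and for the mean, and both are small nuclear-encoded subunits. COX7B changed by -0.53, -0.45 and -0.13 in E. tenella at 4, 18 and 48 h. In E. maxima it changed by -0.48, -0.35 and -0.29 and in E. acervulina by -0.77, -0.50 and -0.20. All 9 were below 0, and in each species the 48 h value was nearest to 0; the mean at 4 h was -0.59 ± 0.15 (adjusted p = 0.012). COX6C was likewise below 0 in all 9 samples, from -0.92 (E. acervulina, 4 h) to -0.23 (E. acervulina, 48 h), with a 4 h mean of -0.61 ± 0.32 (adjusted p = 0.031). COX7A2 was also below 0 in all 9 samples (mean -0.30, adjusted p = 0.086). The assembly factor gene COX11 had a 4 h mean of -0.43 (adjusted p = 0.086) and COX15 of -0.04. The highest mean of the group was 0.08, for COX7A2L, whose product takes part in joining complexes III and IV into supercomplexes.

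Genes of complex V, the ATP synthase, mostly fell: 6 of its 7 were below 0 in all 9 samples, and 5 of 7 passed for the mean of the times. Its median was -0.40 at 4 h, -0.35 at 18 h and -0.40 at 48 h. ATP5L, subunit g of the membrane part, changed by -0.50, -0.50 and -0.25 in E. tenella at 4, 18 and 48 h. Its changes were -0.73, -0.94 and -1.03 in E. maxima and -0.61, -0.69 and -0.81 in E. acervulina. E. tenella was nearest to 0 at every time and E. maxima farthest; the means were -0.61 ± 0.11, -0.71 ± 0.22 and -0.70 ± 0.40 (adjusted p = 0.028, 0.047 and 0.032).

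Other complex V genes fell for the mean: ATP5I, subunit e, by 0.46 (SE 0.10, adjusted p = 0.031), ATP5B, the catalytic beta subunit, by 0.40 (SE 0.11, adjusted p = 0.045), and ATP5PB, a stalk subunit, by 0.38 (SE 0.09, adjusted p = 0.034). ATP5J2, subunit f, fell at 4 h, with changes of -0.60, -0.45 and -0.27 in E. tenella, -0.50, -0.38 and -0.12 in E. maxima and -0.53, -0.21 and -0.14 in E. acervulina at 4, 18 and 48 h. The order of the 3 times was the same in every species, and the 4 h mean was -0.54 ± 0.05 (adjusted p = 0.012). ATP5O, the stalk subunit known as OSCP, had a mean of 0.07 (adjusted p = 0.57), an average of 2 clones that lay on opposite sides of 0.

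**Figure D2:**
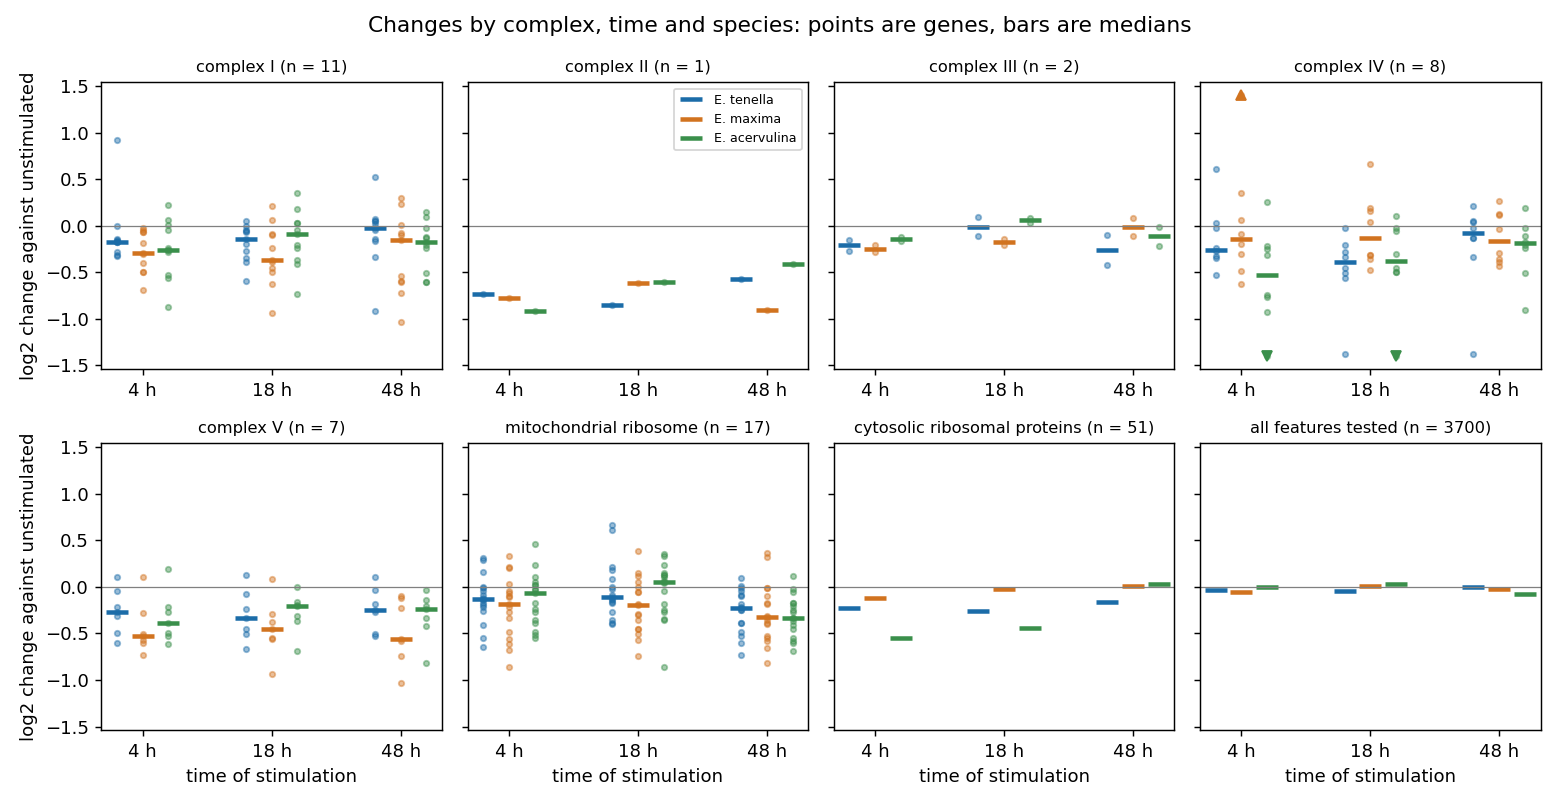
Log2 change against unstimulated RNA (y axis) of each member (points) by complex and species at 4, 18 and 48 h (x axis), with the median of the group as a bar; values beyond -1.4 and 1.4, all of COX4I1, are drawn as triangles at the edge. The medians of complex V lie between -0.56 and -0.21 in the 9 samples, those of the mitochondrial ribosome between -0.33 and 0.05.

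The mitochondrial ribosome had a median nearer to 0 than complex V at each time. It was -0.13 at 4 h, -0.06 at 18 h and -0.26 at 48 h, and 4 of 17 genes passed for the mean. At 48 h this median lay farther from 0 than those of complexes I (-0.07), III (-0.13) and IV (-0.19). All 17 means were below 0 at 48 h, against 12 at 4 h and 10 at 18 h. The median over all features at 48 h was -0.03. MRPL35, of the large subunit, changed by -0.55, -0.39 and -0.61 in E. tenella, -0.87, -0.74 and -0.82 in E. maxima and -0.49, -0.34 and -0.69 in E. acervulina at 4, 18 and 48 h. E. maxima was lowest at each time, and the means were -0.64 ± 0.20 (adjusted p = 0.012), -0.49 ± 0.22 (adjusted p = 0.054) and -0.71 ± 0.11 (adjusted p = 0.023). MRPL33, also of the large subunit, fell by 0.49 at 4 h (SD 0.16, adjusted p = 0.028) and by 0.49 at 48 h (SD 0.09, adjusted p = 0.048), with values between -0.68 and -0.16.

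MRPL14 of the large and MRPS21 of the small subunit were below 0 in all 9 samples. MRPL14 lay between -0.58 and -0.09 with a mean of -0.37 (adjusted p = 0.049), and MRPS21 lay between -0.62 and -0.22 with a mean of -0.42 (adjusted p = 0.025; at 4 h -0.47 ± 0.19, adjusted p = 0.026). MRPS9 was also below 0 in all 9, with a mean of -0.33 that just missed (adjusted p = 0.053). The highest mean was that of MRPL46, 0.10, with no value below -0.03 (adjusted p = 0.43). The large and small subunits had like medians at 48 h, -0.25 and -0.26.

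At 4 h the genes just inside the threshold were COX6C (adjusted p = 0.031) and NDUFS8 (0.036), and just outside lay ATP5I (0.052) and NDUFA11 (0.057). For the mean they were ATP5B (0.045) and MRPL14 (0.049) inside, and MRPS9 (0.053) and NDUFS8 (0.063) outside.

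**Figure D3:**
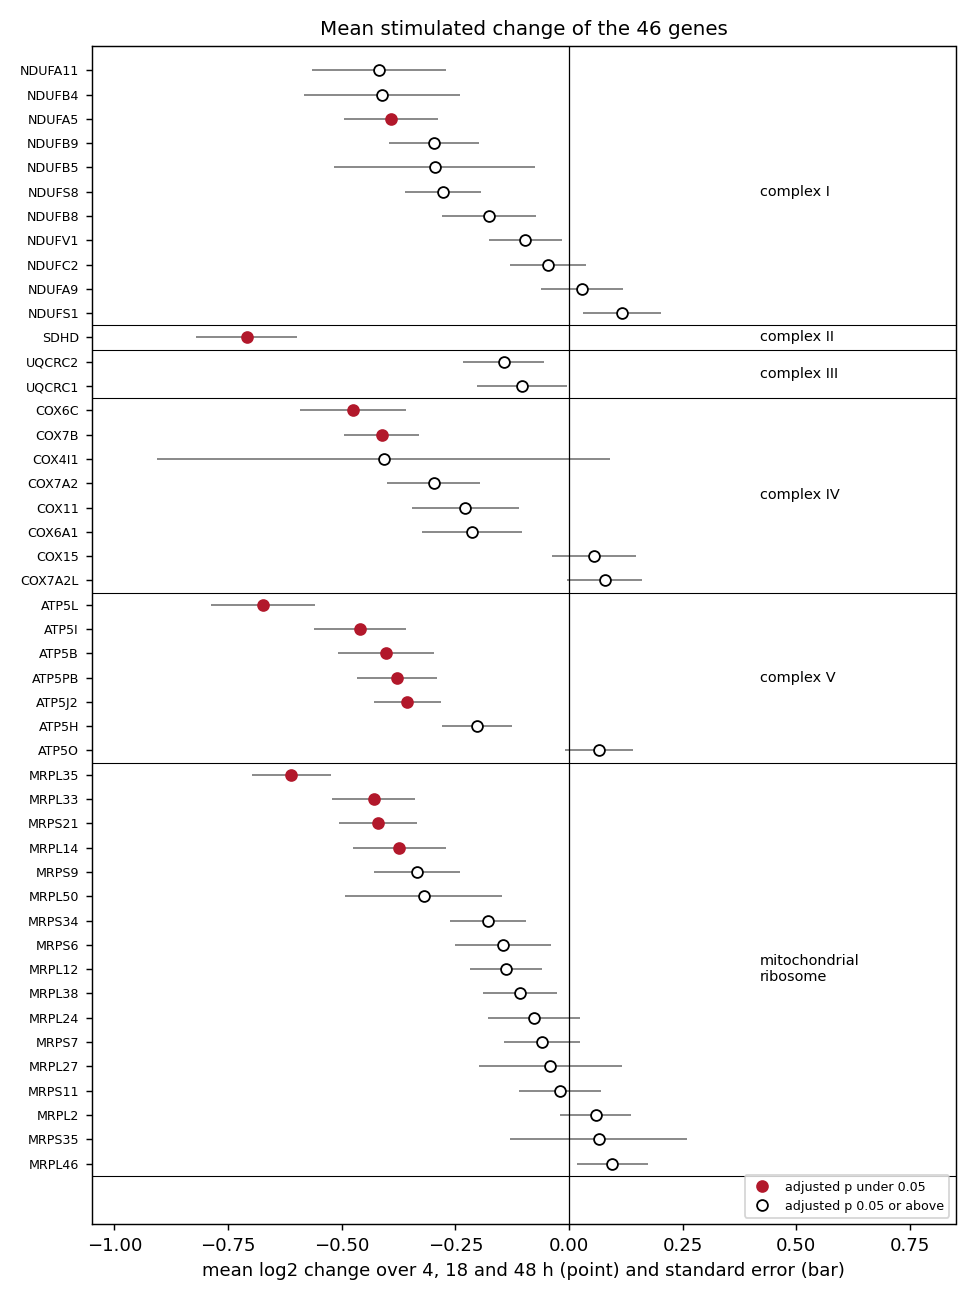
Mean log2 change of the 3 stimulated times against unstimulated RNA (x axis) of the 46 genes (rows), with the standard error of the limma fit as a bar; filled points have an adjusted p under 0.05. The 13 filled points all lie below 0, from -0.71 (SDHD) to -0.36 (ATP5J2).

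Between 4 h and 48 h ATP5J2 rose by 0.37 (SE 0.09, adjusted p = 0.045) and MRPL2, of the large mitochondrial ribosomal subunit, fell by 0.39 (SE 0.10, adjusted p = 0.041). The unstimulated RNA's own deviation cancels in this comparison, although its estimate also runs through the arrays that hold that RNA. These are 1 of 46 in each direction, beside 3.3% of all features higher and 3.84% lower, so the share of members was near that of all features. MRPL2 changed against unstimulated cells by 0.29, 0.08 and -0.10 in E. tenella, 0.20, -0.05 and -0.18 in E. maxima and 0.23, 0.23 and -0.18 in E. acervulina at 4, 18 and 48 h. It was above 0 in all species at 4 h and below 0 in all at 48 h. COX7B had a difference of 0.39 that missed (adjusted p = 0.052). With any species left out neither call held, where 0 to 11 of all features passed, and 6 to 10 members had an unadjusted p under 0.05. The count over all features at that unadjusted limit is not given for those fits. With all species it was 13 members and 979 features.

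No member passed between 18 h and 4 h (0.027% of all features) or between 48 h and 18 h (0% of all features, limma). At an unadjusted p under 0.05 there were 2 members and 494 features between 18 h and 4 h, and 8 members and 501 features between 48 h and 18 h.

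The 51 genes of the cytosolic ribosome, which are not members, had another course over time than the mitochondrial ribosome. Their median change was -0.30 at 4 h, -0.25 at 18 h and -0.03 at 48 h, and from 4 h to 48 h only 5 of 51 had a difference below 0 (median 0.25). For the mitochondrial ribosome 12 of 17 were below 0 from 4 h to 48 h (median -0.08), and for the 29 genes of complexes I to V 14 were (median 0.00). By complex the median of this difference was 0.05 in I, 0.18 in II, 0.07 in III, 0.17 in IV and -0.06 in V. The complex IV median thus had the sign of the cytosolic one, with 3 of 8 genes below 0. Those 8 include the assembly factor genes COX11 and COX15. The difference between these groups of genes was not tested. In E. acervulina the median of the cytosolic ribosomal genes went from -0.55 at 4 h to 0.03 at 48 h. That of the mitochondrial ribosome went from -0.06 to -0.33, and that of complex IV from -0.53 to -0.19. The species did not share this course in complex IV. Its median went from -0.26 to -0.07 in E. tenella and from -0.14 to -0.16 in E. maxima.

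The species were compared over their mean stimulated change. No member passed in the planned F test, which takes the 3 times of a species as repeats (139 of all features, 3.76%, passed; 9 members and 988 features had an unadjusted p under 0.05). Its p-values are too small, because the 3 changes of a species share 1 unstimulated RNA. With the unstimulated RNA as a sample of its own, 0 members and 0% of all features passed, and 0 members and 113 features had an unadjusted p under 0.05. The 3 members with the lowest p were COX4I1, MRPL50 and NDUFB4. MRPL50 had means of -0.42 in E. tenella, 0.12 in E. maxima and -0.66 in E. acervulina, and NDUFB4, an accessory subunit of complex I, of -0.14, -0.82 and -0.28 in the same order. The spots of MRPL50 differed in sign on some arrays. They read -0.43, -0.64 and 0.34 for E. maxima, 4 h with unstimulated RNA. For E. acervulina, 4 h with 18 h, they read -0.42, 0.61 and 0.87. NDUFB4 was lowest in E. maxima, where it changed by -0.49, -0.93 and -1.04 at 4, 18 and 48 h. In this fit the members' median 95% half-width for a species difference was 0.59, from 0.48 to 2.33 (COX4I1). For ATP5L the difference of E. maxima from E. tenella was -0.48 ± 0.63 (95% half-width), and for SDHD -0.04 ± 0.73.

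The median of the 46 genes lay below 0 in all 9 samples. It was -0.18, -0.17 and -0.15 at 4, 18 and 48 h in E. tenella, -0.27, -0.30 and -0.30 in E. maxima and -0.25, -0.12 and -0.22 in E. acervulina. Genes below 0 numbered 35 to 38 in E. tenella, 35 to 38 in E. maxima and 29 to 42 in E. acervulina. Over all features the median lay between -0.08 and 0.03 in the same samples.

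Against array error alone, 3 members passed with a change of at least 2-fold. COX4I1 was higher in E. maxima at 4 h (2.34, adjusted p = 0.023) and lower in E. acervulina at 4 h (-1.49, adjusted p = 0.036). Its spots disagreed, as given below, and this array error does not include the spread between spots. NDUFB4 and ATP5L were lower in E. maxima at 48 h (-1.04 and -1.03, adjusted p = 0.016 for both). These 3 of 46 genes stand beside 11% of all features past the same limits in at least 1 of 9 samples. That fit has 2 residual degrees of freedom and compares RNA samples, not conditions. Without the dye term no member passed, and the count over all features for that setting is not given here.

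COX4I1, which encodes the regulatory subunit isoform 4-1 of complex IV, was unlike the rest of its complex. It changed by 0.61, -1.38 and -1.38 in E. tenella at 4, 18 and 48 h, by 2.34, 0.66 and -0.03 in E. maxima and by -1.49, -2.11 and -0.90 in E. acervulina. E. maxima was highest at each time and the species did not share a direction at 4 or 18 h. The means were 0.49 ± 1.9, -0.94 ± 1.4 and -0.77 ± 0.68 (adjusted p = 0.64, 0.35 and 0.45), and the species means were -0.72, 0.99 and -1.50. The difference of E. acervulina from E. maxima was -2.49 ± 2.33 (95% half-width), but its test over all features did not pass (adjusted p = 0.068 as planned and 0.9997 with the unstimulated RNA as a sample of its own). Without the 48 h samples the planned test gave COX4I1 an adjusted p of 0.041. The p-values of that test are too small, as said above, so no difference between species is drawn from it.

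The spots behind COX4I1 disagreed. Its clone is spotted 3 times and gave 20 of 36 possible values, where the other single-clone members with 3 rows had 29 to 35, and 5 of the 12 arrays held 1 spot. On the E. tenella array of 4 h with 18 h the spots read 3.22 and 1.52, and on the E. acervulina array of the same times -1.42 and 2.58. On the E. maxima array of 18 h with 4 h they read 0.06 and -2.85, and on that of 48 h with 18 h 0.47 and -1.30. The 4 h value of E. maxima rests on the array of 4 h with unstimulated RNA, where the lone spot read 2.63, and on the others of its loop. That of E. acervulina likewise rests on a lone spot, which read 1.44 for unstimulated RNA with 4 h, and on its other arrays. The SD between spots of an array was 1.45, the highest of 2238 features that allow one, while the other members had a median of 0.14 and a highest value of 0.51 (MRPL27). Its array error SD of 0.44, taken from the misfit of its loops, ranked 305 of 3700 from the highest.

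**Figure D4:**
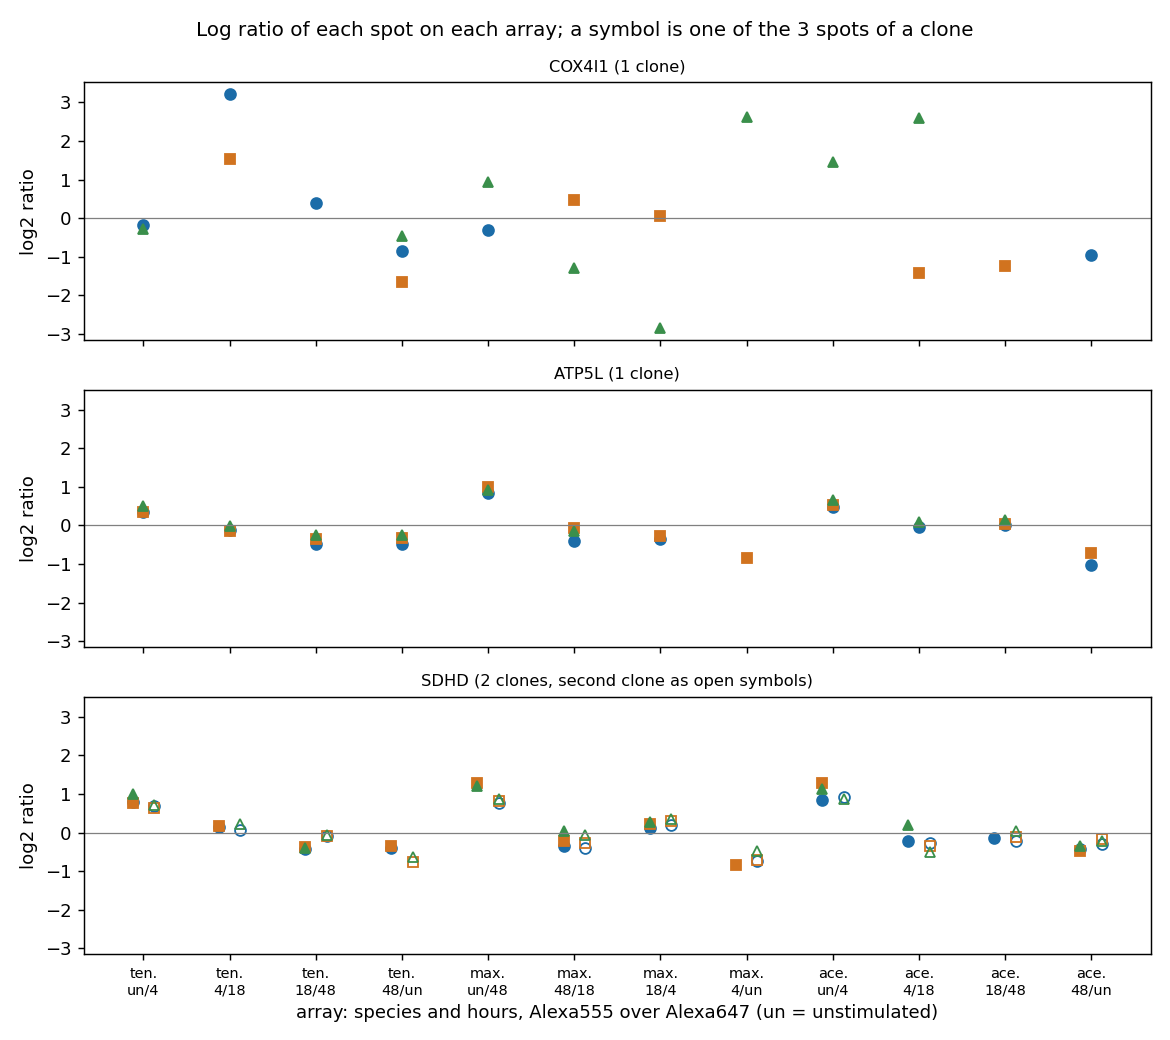
Deposited log2 ratio of each spot (y axis) on each of the 12 arrays (x axis) for COX4I1, ATP5L and SDHD. Spots of ATP5L and SDHD mostly lie closer together than those of COX4I1. On the E. acervulina array of 4 h with 18 h, SDHD spots run from -0.51 to 0.21, and COX4I1 spots read -1.42 and 2.58.

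Over the 9 changes, the named features most like COX4I1 of the 2237 others were KBTBD4 (Pearson r = 0.93), RASA3 (0.92), RBM15B (0.88), DDX3X (0.87) and TNFSF13B (0.85). Least like it were CCAR1 (-0.96), PSMA5 (-0.94) and EFHD1 (-0.92). With the other 45 members r ran from -0.79 (MRPL33) to 0.59 (MRPL46), with a median of -0.20. The 9 changes share 3 unstimulated RNAs and the spots above, so these values are a description.

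For 8 members more than 1 clone was averaged, and for some the clones went different ways. The clones of ATP5O lay on opposite sides of 0 in all 9 samples: clone 1 between 0.35 and 0.89 (mean 0.59) and clone 2 between -0.78 and -0.04 (mean -0.39). The ATP5O mean near 0 therefore describes neither clone. With each row tested on its own, a row of clone 1 was higher at 4 h (0.72, adjusted p = 0.016) and for the mean (0.58, adjusted p = 0.020), and a row of clone 2 was lower at 48 h (-0.56, adjusted p = 0.044) and for the mean (-0.43, adjusted p = 0.035). Of the 3 MRPS11 clones the means were -0.40, 0.06 and 0.15. The COX6A1 clones read -0.91 and 0.14 in E. maxima at 48 h. The clones of SDHD lay on the same side of 0 in all 9 samples, and those of ATP5B in 8 of 9, with means of -0.57 and -0.23. Whether clones differ through isoform, cross-hybridization or annotation was not tested.

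**Figure D5:**
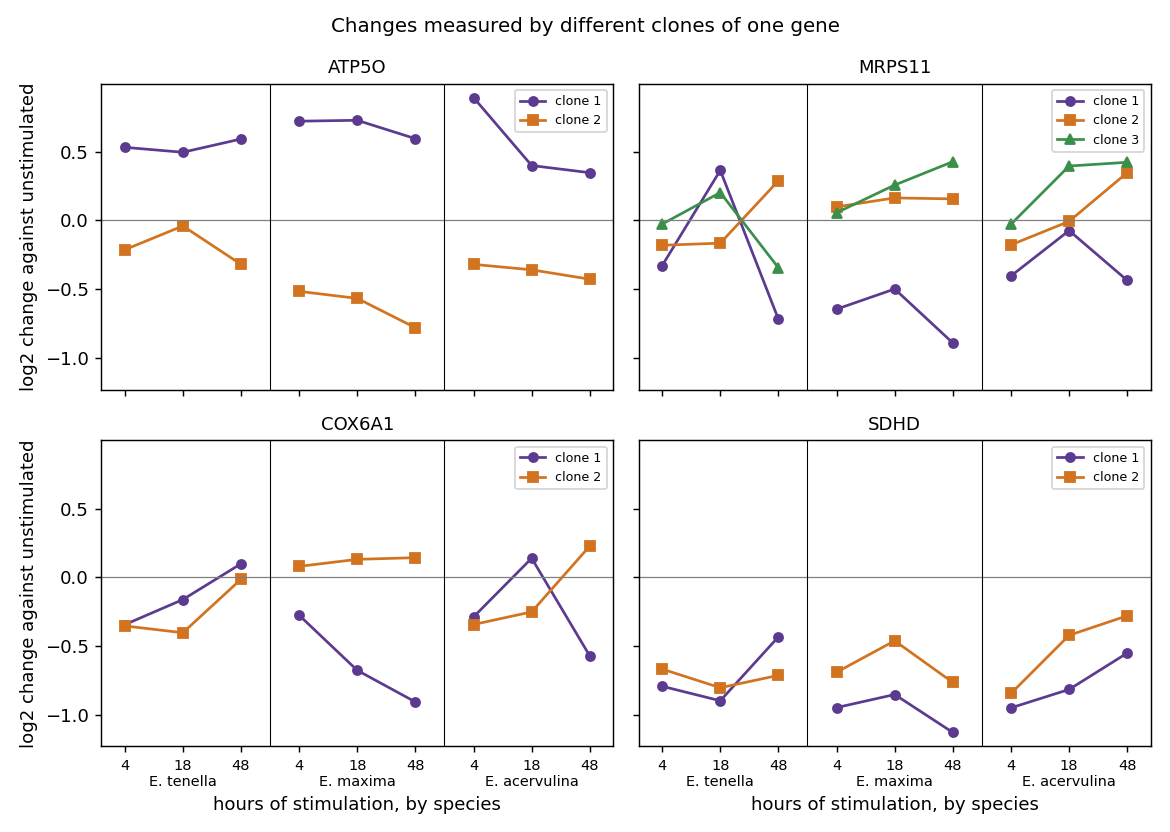
Log2 change against unstimulated RNA (y axis) of each clone of ATP5O, MRPS11, COX6A1 and SDHD in the 9 species-time samples (x axis). The ATP5O clones lie on opposite sides of 0 throughout, and both SDHD clones lie below 0 throughout.

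Other mitochondrial genes did not all go the way of these complexes. COQ5, an enzyme of ubiquinone synthesis, fell by 0.66 at 4 h (adjusted p = 0.024), by 0.79 at 18 h (adjusted p = 0.040) and by 0.66 for the mean (adjusted p = 0.016). It was the only one of 4 listed genes of electron carriers and their partners (COQ5, COQ6, COQ9 and ETFA) to pass against unstimulated cells. Of the 4, 3 were below 0 in all 9 samples, with ETFA at -0.001 in E. tenella at 18 h. Among 7 import and folding genes, the chaperonin gene HSPE1 fell by 0.66 at 4 h (adjusted p = 0.014) and by 0.47 for the mean (adjusted p = 0.025). PHB, a prohibitin, fell by 0.29 for the mean (adjusted p = 0.044). TSPO, an outer membrane protein and 1 of 6 carrier and pore genes, fell by 1.13 at 4 h (adjusted p = 0.0084) and by 0.70 at 18 h (adjusted p = 0.042). For the mean TSPO fell by 0.76 (adjusted p = 0.011). None of 7 genes of the TCA cycle and pyruvate entry passed, and their median was 0.13 at 4 h, where 6 were above 0. At 48 h they lay on both sides of 0, from -0.23 (DLST) to 0.25 (IDH3A). ATPAF1 of complex V assembly, GFM1 and TFAM of mitochondrial translation and transcription, and the regulators NRF1 and GABPA did not pass.

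Of the 46 symbols 45 matched a current chicken gene record (RefSeq); ATP5L did not. In RefSeq's gene order 2 pairs of members are neighbouring protein-coding genes, ATP5O with MRPS6 and MRPL46 with MRPS11. Their mean changes were 0.07 and -0.15, and 0.10 and -0.02, and none of the 4 passed as an average of rows. The values of ATP5O and MRPS11 average clones that went different ways, as given above.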

How the data were processed

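The arrays measured polyA RNA of HTC chicken macrophages. The authors deposited 1 log ratio per spot and array, read here as log2. Not given in the sources used here are the log base, the background correction, the normalization and the numerator dye. The direction, Alexa555 over Alexa647, rests on the order of names in the sample titles and on what is remembered of the study's chemokine signs, and is likely only. Another base would rescale every change.

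Rows were named from the platform annotation, and rows of a symbol were averaged. Rows with no symbol or with several stayed single. The 3700 features complete on all 12 arrays entered the tests. The level of each RNA relative to its loop's mean was solved by least squares, where a dye effect common to the 4 arrays drops out. Limma 3.58.1 in R 4.3.3 was fitted to the 12 levels with time as a factor and species as a block (6 residual degrees of freedom), to the changes of each species with an F test (4), and to the arrays with a dye term (2). P-values are two-sided, Benjamini-Hochberg adjusted over all features and called under 0.05. They measure the spread between these samples, which the labels do not call separate cultures. Scripts were tested on simulated data, which also showed that the F test's p-values are too small. A fit with the unstimulated RNA as its own sample was therefore added after the data were seen.

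The genes, lists and tests were chosen with earlier results of these data known. Named with values are COX4I1, members past the threshold, the highest and lowest of each group, the 3 lowest in the species test and those next to the threshold; NDUFB5, COX7A2, COX11, COX15, COX6A1, MRPS6, MRPS11 and MRPL27 were named after their values were seen. Lists of B cell, T cell, erythroid, fibroblast and macrophage markers were matched by symbol, and no B cell gene was on the array. The number of arrays limits the precision.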

Additional observations from a re-analysis of the deposited data

Results flagged for a closer look

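The mean change of COX7A2L was -0.057 in E. tenella, where all 3 times were below 0 (-0.02, -0.02 and -0.13 at 4, 18 and 48 h), and 0.21 in E. maxima, where all 3 were above 0 (0.35, 0.16 and 0.12). In E. acervulina it was 0.26, 0.10 and -0.11. These directions marked the gene for a closer look and are not themselves a test. In the limma fit with the unstimulated RNA as its own sample, the species test of COX7A2L had an unadjusted p of 0.50, and the difference of E. maxima from E. tenella was 0.27 ± 0.50 (95% half-width).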

How the results depend on the processing

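Leaving out 1 species at a time, in the limma fits, gave 0 to 0 members past the threshold at 4 h, 18 h, 48 h, for the mean and from 4 h to 48 h, each fit resting on fewer samples; calls over all 3700 features dropped too, to between 0 and 76. With each row tested on its own, for the 25 members with a row complete on all arrays, 5 members passed at 4 h (4 lower, and an ATP5O row higher), 0 at 18 h, 1 at 48 h (an ATP5O row, lower), 6 for the mean (1 of them ATP5O, with a row lower and a row higher) and 0 from 4 h to 48 h, beside 378, 38, 126, 329 and 317 of 3924 rows and features. With arrays scaled to one spread, 0 passed at 18 h, 2 at 48 h and 5 for the mean, beside 38, 118 and 187 of all features. With at least 3 of 4 arrays of every loop, 0 passed at 18 h, 1 at 48 h, 6 for the mean and 0 from 4 h to 48 h, beside 5, 37, 208 and 154 of 6825 features. The median of the rows gave 4 at 18 h and 1 from 4 h to 48 h, beside 107 and 256 of all features. Centred arrays gave 2 at 48 h, beside 123. At 48 h ATP5L and MRPL35 passed with centred and with scaled arrays, and SDHD and MRPL33 did not. With at least 3 of 4 arrays of every loop only MRPL35 passed at 48 h. At least 2 spots on every array, chosen after seeing the data, gave 1 at 18 h, beside 32 of 1671 features. The cause was not tested where none is given. Without 1 of the 3 times, the planned species test passed 0 to 1 members, 1 (COX4I1) without 48 h. Its p-values are too small, and the counts over all features for these fits are not given here. Against array error, no dye term gave 0 members and no minimum fold gave 26. The counts over all features under these settings are not given either, so the 26 cannot be read as particular to the members.

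Centring moved the split of all features: at 4 h 176 lower and 231 higher, against 218 and 167 as deposited; at 48 h 47 and 76 against 69 and 64; for the mean 172 and 203 against 233 and 154. The 9 members called at 4 h were the same 9 after centring, all lower. For the mean, centring left 9 members, beside 375 of all features, and ATP5B, COX6C, MRPL14 and NDUFA5 no longer passed. At 4 h, 6 members passed with arrays scaled to one spread, without COX6C, MRPS21 and NDUFS8, beside 296 of all features. With at least 3 of 4 arrays of every loop 7 passed at 4 h, without COX6C and NDUFS8, beside 379 of 6825 features. Among members averaged over rows no call reversed its direction; the rows of ATP5O, tested singly, passed in opposite directions.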
